A study of Drosophila melanogaster x Drosophila sechellia and Drosophila melanogaster and Drosophila sechellia with 12 samples.

Results

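Adenosine-to-inosine RNA editing was described at the most crowded stretches of a fly site list, the 25 loci that hold 8 or more listed sites each. Sites were joined to the next one on the same chromosome arm when at most 1000 bases lay between them, which gave 309 loci from 1058 sites, and the 319 sites of the 25 densest loci are the members. No measured level entered this choice. Just inside the limit were 2 loci of 8 sites, and just outside it were 13 loci of 7 sites. The largest locus held 24 sites. The members lay on 5 chromosome arms, with 112 sites in 8 loci on 2R, 82 in 7 on X, 65 in 5 on 3R, 49 in 4 on 3L and 11 in 1 on 2L. Neighbouring members stood a median of 8 bases apart, and 54 of the 294 neighbouring pairs were adjacent bases.

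ADAR enzymes bind double-stranded RNA and deaminate adenosine to inosine, which a sequencer reads as G, so the share of G among A and G reads at a site is its editing level. Fly Adar is expressed mainly in the nervous system, and many of its targets are nerve transcripts edited at specific adenosines. Where an RNA forms a long duplex, many adenosines close together can be edited, each to its own level.

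The study used heads of female flies 0 to 2 days old. Adar F1 hybrids (n = 3) came from a D. melanogaster Adar mutant and D. sechellia, and F1 hybrids (n = 3) came from a cross of the 2 species with no mutation named. The parents were D. sechellia (n = 2) and D. melanogaster (n = 2), and a mixed-parents control (n = 2) held both species without a cross. The labels give neither the Adar allele nor the stocks, and nothing in them ties replicates to separate sets of flies, so p-values measure the spread between libraries, which may be technical. Targeted loci were amplified by PCR before sequencing. Sites are named by chromosome arm and dm3 position, because the tables name no genes.

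Libraries held 251870 to 398284 reads over all sites, of which 92462 to 156214 were used at the members. Of the 319 members, 287 had at least 50 reads in all 4 parent libraries, 194 had them on both alleles of all F1 libraries, and 248 had them in all Adar F1 and F1 libraries. A mean level of at least 1% was also required for a test, and 30 members were tested in no comparison. The Adar F1 libraries stood apart in coverage: 43 to 50 members had no read in each of them, against 2 to 16 in each other library. Their coverage per site correlated with that of the F1 libraries at r = 0.443 to 0.528, while the 3 F1 libraries correlated among themselves at 0.899 to 0.977 (across sites, as a description). Genotype and this coverage pattern cannot be told apart. The D. melanogaster sequence took 56.2% to 57.7% of member reads in Adar F1 and 62.1% to 63.6% in F1. At 30 of the 248 members covered in both, this read share differed by more than 30 percentage points between Adar F1 and F1.

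Levels differed widely between sites of 1 locus. Over loci with at least 5 covered sites, the median distance between the lowest and the highest site was 79.5 percentage points in D. sechellia (23 loci) and 75.1 points in D. melanogaster (24 loci). It was 73.9 points in Adar F1 (21 loci) and 77.1 points in F1 (24 loci). The median standard deviation among sites of a locus was 27.3 points in D. sechellia and 26.1 points in D. melanogaster, against a median replicate standard deviation of 0.713 and 0.659 points. About as many members were weakly edited as not: 150 of 295 covered members were under 5% in D. sechellia and 149 of 304 in D. melanogaster, and the median levels were 4.61% and 5.86%. At the other end, 37 members in D. sechellia against 33 in D. melanogaster stood from 50% to below 95%.

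**Figure D1:**
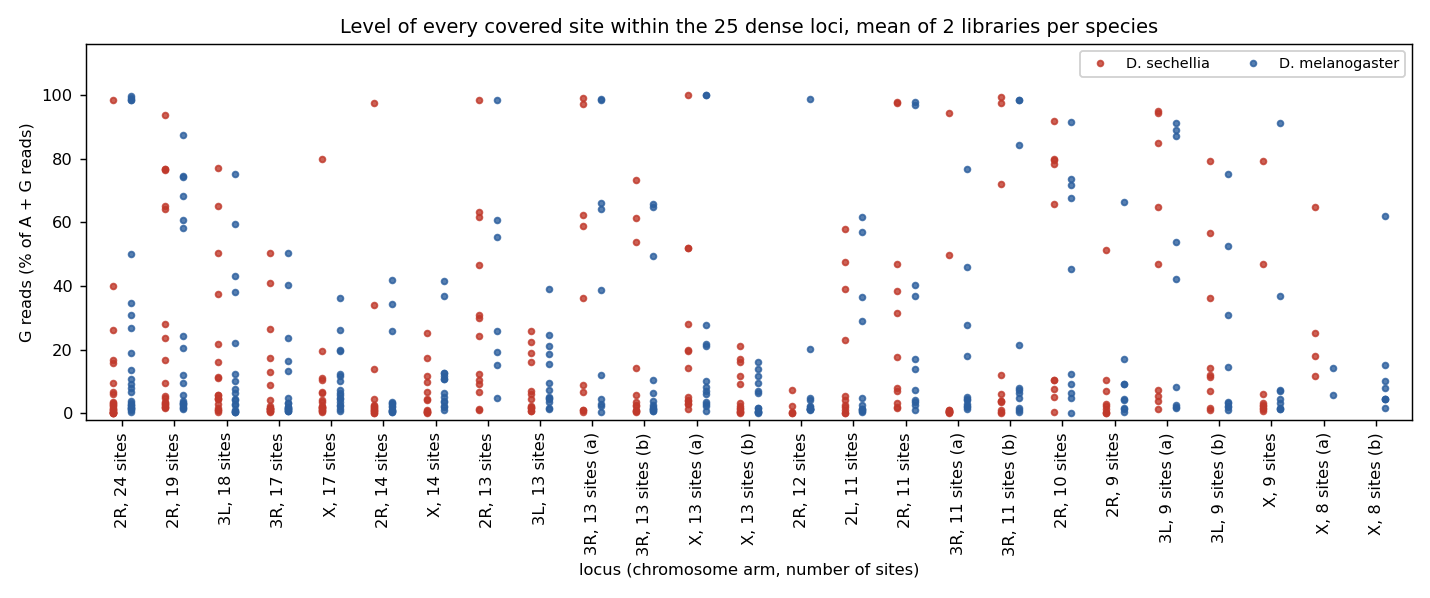
Share of G reads (y axis, percent) at every covered site of the 25 loci (x axis, by arm and number of sites, with letters in order of position), 1 point per site, mean of 2 libraries. Within most loci the points run from near 0 to above 50%, with a median range of 79.5 points in D. sechellia and 75.1 points in D. melanogaster.

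Differences between sites of a locus made up most of the variance of levels among members. The share of variance within loci was 83.9% in D. sechellia, 87.1% in D. melanogaster, 87.7% in Adar F1 and 84.8% in F1. For other loci of 2 or more sites the same share was 61.5%, 71.1%, 69.1% and 65.9% in those groups. A locus with few sites leaves less room for variance within it, so the 2 sets are set side by side with no test.

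Closeness did not bring similar levels. Members on adjacent bases differed by a median of 15.0 points in D. sechellia (53 pairs, 23 of them over 20 points) and 13.8 points in D. melanogaster (53 pairs, 21 over 20 points). Pairs more than 20 bases apart differed by a median of 10.9 and 12.1 points (83 pairs in each species). The 19-site locus on 2R gives an example: position 20802381 was at 93.6% in D. sechellia against 87.3% in D. melanogaster, and the adjacent 20802382 was at 9.57% and 9.40%.

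The order of sites by level was shared more closely between Adar F1 and F1 than between the species. Spearman's rho of site levels within a locus had a median of 0.767 between D. sechellia and D. melanogaster (22 loci, 0.263 to 1, 7 of them under 0.5). Between Adar F1 and F1 the median was 0.939 (20 loci, 0.648 to 1, none under 0.5). These are descriptions across sites of 1 transcript region, which share libraries and amplification.

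Between the parent species, site levels differed at 117 of the 266 members tested, 48 of them higher and 69 lower in D. sechellia (quasi-binomial test, adjusted over all 771 sites). The background was 41.5% of all tested sites called, 16.1% higher and 25.4% lower, and the members' 44.0% was near it. The median difference was -0.35 points over tested members and -0.52 points over all tested sites. Averaged over 287 covered members, the level was 18.4% and 19.4% in the D. sechellia libraries, against 20.2% and 19.95% in the D. melanogaster libraries. The libraries did not overlap, and the exact two-sided permutation p was 0.333, the smallest that 2 against 2 allow. Leaving out the members that read nearly all G in a parent (95% or above), the difference was -0.148 points, against -1.17 points with them. By arm, members were called at 41 of 64 tested sites on X, 7 of 11 on 2L, 34 of 91 on 2R, 17 of 46 on 3L and 18 of 54 on 3R. The share over all sites of each arm is not given here, and the arms were not tested against each other.

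Differences of both signs met within the same locus. Of 21 loci with at least 2 called sites, 12 held sites that were higher and sites that were lower in D. sechellia, 7 held only higher and 2 only lower sites. No such count was made for the other loci. A site's difference was also set against the mean difference of the other sites of its locus, with limma on arcsine-square-root levels. It departed from them at 110 of 285 members, 59 upward and 51 downward, against 39.9% of all sites tested so.

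Of the 6 largest species differences in each direction, taking at most 2 members per locus, 9 of 12 were at members where at least 95% of reads were G in a parent, where complete editing and a G in the genome look alike. In all, 18 members reached 95% G in a parent, and 11 of these differed between the species. The share called over all sites at 95% G is not given here. On 3R, 14733513 read 97.2% and 97.2% G in D. sechellia against 2.23% and 2.15% in D. melanogaster, while 14733486, 27 bases before it, read 1.55% and 0.427% against 98.6% and 99.1%. The species thus had opposite near-complete states at positions of the same locus. On 2R, 13262563 read 97.0% and 99.7% G in D. sechellia against 18.3% and 19.2% in D. melanogaster. In the same locus 13262611 read 1.37% and 0.660% against 99.1% and 99.0%, and 13262655 had no G among 284 D. sechellia reads, which allows a level of up to 1.06%, against 98.6% and 98.2%. At 2R 6168396 the level was 98.1% and 96.7% in D. sechellia, on 52 and 61 reads, against 25.4% and 26.5% in D. melanogaster.

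The 13-site locus on X that starts at 3847283 held differences of both signs at neighbouring sites. Position 3847297 was at 100% and 99.7% in D. sechellia against 25.6% and 29.7% in D. melanogaster. Position 3847311 was at 50.4% and 53.4% against 6.55% and 7.44%. The adjacent 3847312 went the other way, at 17.6% and 21.8% in D. sechellia against 99.7% and 100% in D. melanogaster, and so did 3847285, at 49.6% and 54.4% against 100% and 100%. Over its 13 sites the mean level was nonetheless 23.5% ± 2.32 in D. sechellia against 23.9% ± 0.297 in D. melanogaster (SD, n = 2), with an adjusted p of 0.497 for the locus by limma. This near-equal mean included 3 sites at 95% G in a parent. Over the 12 sites also covered on both alleles of the F1 and mixed-parents libraries, the gap between the parents was +0.156 points. Without those at 95% G it was +6.42 points over 9 sites (13.3% against 6.84%), and between F1 alleles +7.28 points, neither of them tested.

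**Figure D2:**
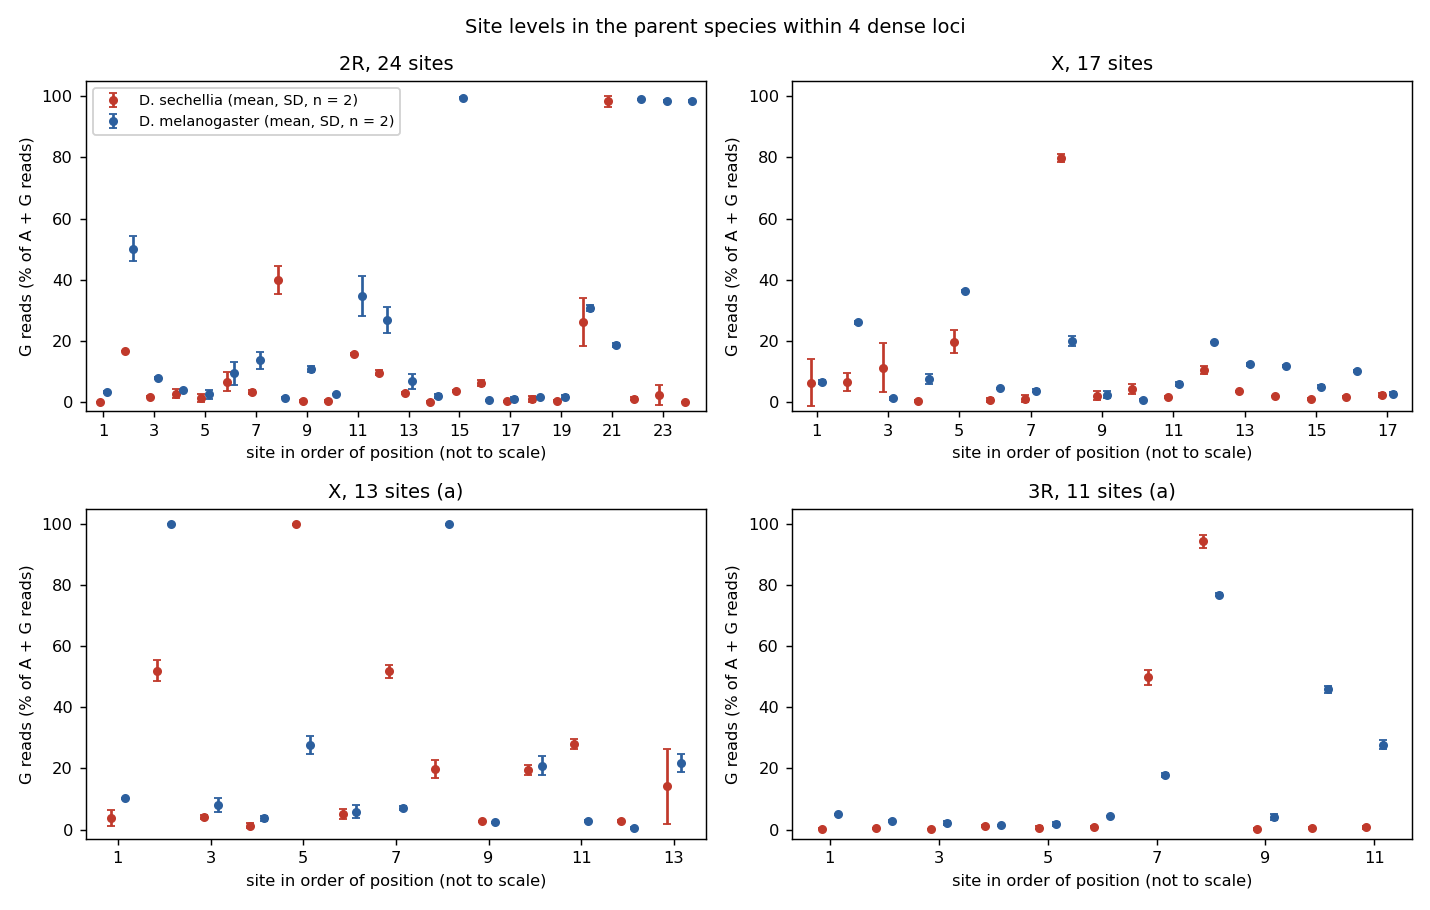
Share of G reads (y axis, percent, mean and SD of 2 libraries) at each site in order of position (x axis) in D. sechellia and D. melanogaster within 4 loci. In the 13-site X locus (the one starting at 3847283), sites at 100% in 1 species alternate between the species, while in the 17-site X locus 1 site stands at 79.8% in D. sechellia against at 19.9% in D. melanogaster.

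In the 17-site locus on X, which starts at 1267357, 14 of 17 tested sites differed, 3 higher and 11 lower in D. sechellia. The highest was 1267594, at 78.8% and 80.7% in D. sechellia against 18.8% and 21.1% in D. melanogaster. Lower in D. sechellia were 1267561, at 19.7% ± 3.75 against 36.2% ± 0.296, and 1267379, at 6.64% ± 2.96 against 26.0% ± 0.430 (SD, n = 2). D. melanogaster reads made up 15.9% of all reads at this locus in the D. sechellia libraries, and levels there used only reads assigned to D. sechellia; the part of this in the differences was not tested.

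By the mean level over its sites, a locus differed between the species in 10 of 24 cases, 3 higher and 7 lower in D. sechellia (limma, adjusted over 260 loci, background 38.5%). The 24-site locus on 2R, 13262372 to 13262655, averaged 10.5% and 9.56% in D. sechellia against 26.6% and 25.5% in D. melanogaster, a difference of -16.0 points (adjusted p = 1.47e-05). Without the sites that read 95% G in a parent it was -3.99 points and still called (adjusted p = 0.0136 by limma). Of its 23 tested sites 13 were lower and 3 higher in D. sechellia, and 5 of its 24 sites reached 95% G in a parent. A further fact concerns this locus: at 13 of its 24 sites both mixed-parents libraries were above all 4 parent libraries, as at 13262533, where the mixed parents averaged 71.5%, D. sechellia 15.6% and D. melanogaster 34.7%. Over all covered sites such an excess was seen at 6.09%, and at 28 of 287 members. D. melanogaster reads made up 9.50% of this locus in the D. sechellia libraries and 93.1% in the mixed parents; their part in the difference was not tested.

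The 14-site locus on X, 21500431 to 21500554, averaged 5.79% and 6.76% in D. sechellia against 12.7% and 11.7% in D. melanogaster over 13 covered sites (-5.90 points, adjusted p = 0.000165). Here 7 sites were lower and 1 higher, and 11.5% of the reads in the D. sechellia libraries were of the D. melanogaster sequence. That sequence took 99.6% of the reads of this locus in the mixed parents and 99.6% in F1, and no site was tested between F1 alleles. The part of these reads in the species difference was not tested. The 9-site locus on 2R at 11759236 averaged 8.32% and 8.48% in D. sechellia against 12.6% and 12.7% in D. melanogaster (-4.22 points, adjusted p = 0.00281), and between the alleles of the mixed parents the gap was -3.04 points and not called.

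Higher in D. sechellia were 3 loci. At X 11862709, 2 of the 8 sites were covered, and their mean was 17.1% and 26.0% in D. sechellia against 8.64% and 11.3% in D. melanogaster (+11.6 points, adjusted p = 0.0072). The call was lost without D. melanogaster replicate 1 (+7.48 points), and without D. sechellia replicate 2 the difference was +7.15 points and called. At 2R 20797921 the mean over 7 covered sites was 45.2% and 50.6% against 41.7% and 37.9% (+8.04 points, adjusted p = 0.0171), and the call was lost without D. sechellia replicate 2 (+5.34), without D. melanogaster replicate 2 (+4.71) or with pooled reads (+4.52), and between the alleles of the mixed parents it was +0.488 points and not called. At 3L 4590648 it was 24.9% and 23.8% against 21.2% and 19.9% (+3.80 points, adjusted p = 0.0225), and it was lost without D. sechellia replicate 1 (+3.25) or D. melanogaster replicate 2 (+3.15), and between the alleles of the mixed parents, at +3.80 points. Without D. melanogaster replicate 2, 6 loci were called in place of 10.

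Large loci did not all diverge. In the 19-site locus on 2R, 20802211 to 20802397, 4 of 19 sites were higher in D. sechellia and none lower, and the order of its sites was nearly the same in both species (rho = 0.977). In the 17-site locus on 3R, 4662509 to 4663337, 2 sites were higher and 2 lower of 16 tested, and the locus mean was 10.2% ± 0.957 in D. sechellia against 9.79% ± 0.235 in D. melanogaster (SD, n = 2). Its most edited sites stood close together in level, with 4662906 at 50.5% in D. sechellia against 50.3% in D. melanogaster, and 4662913 at 40.8% and 40.3%. In the 18-site locus on 3L, 9826390 to 9826587, 4 of 15 tested sites were higher in D. sechellia and none lower. In the 14-site locus on 2R, 6168385 to 6168565, 13 sites were tested, of which 6168396 was higher and 6168388 lower, at 14.0% in D. sechellia against 34.3% in D. melanogaster.

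In F1 hybrids the 2 alleles share the same cells, so their comparison asks how much of a species difference stays with the allele. Of 177 members tested, 57 showed a gap between the alleles, which favoured D. sechellia at 27 and D. melanogaster at 30 (504 sites tested in all, background 28.2%). The mean over 194 members was 22.0%, 21.3% and 21.9% on the D. sechellia allele against 21.3%, 21.0% and 21.1% on the D. melanogaster allele. The D. sechellia allele was higher in 3 of 3 libraries by 0.600 points on average (exact two-sided sign-flip permutation p = 0.25, the smallest that 3 pairs allow), and with the median over sites in place of the mean the difference was -0.794 points. Of 10 loci with at least 2 called sites, 8 held calls of both signs, and the other loci were not counted so.

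Of the members that differed between the species, 73 were tested in F1. The F1 gap had the sign of the species difference at 69 of them, 44 were called with that sign and 0 with the opposite sign (4 had the opposite sign uncalled). The share over all sites that differed between the species is not given here, so these counts do not set the members apart. The median absolute size was 4.24 points between F1 alleles, against 8.08 points between the parents at the same 73 sites, which were chosen by the parental difference. Between the alleles of the mixed parents 60 of 182 members were called, against a background of 28.6%. At X 1267594 the D. sechellia allele was at 87.5%, 87.1% and 81.5% against 15.5%, 6.98% and 9.15% on the D. melanogaster allele. The neighbouring X 1267561 ran the other way, at 16.7%, 18.6% and 10.8% against 33.3%, 35.8% and 33.6%. In the X locus at 3847283 the D. sechellia allele was far higher at 3847297, at 97.7%, 100% and 99.3% against 23.7%, 20.5% and 20.2%. It was also higher at 3847311, at 55.0%, 40.6% and 53.9% against 5.10%, 7.47% and 5.45%. It was lower at 3847312 by 80.6 points and at 3847285 by 44.7 points. The alternation seen between the species was thus present between alleles of the same flies.

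Further allelic gaps lay at 2R 7335492, where the D. sechellia allele was at 77.5%, 62.2% and 78.8% against 60.4%, 40.6% and 51.9% on the D. melanogaster allele, and at 2L 13187842. At this 2L site the D. sechellia allele had 0%, 1.30% and 0% against 26.4%, 26.8% and 25%, and the D. sechellia parent had no G among 475 reads, which allows up to 0.632%, against 29.0% ± 0.313 (SD, n = 2) in the D. melanogaster parent. At 3R 14733513 the alleles were at 92.5%, 90.7% and 91.7% against 3.22%, 3.71% and 4.69%, which repeated the parental gap of a site at 97.2% G in D. sechellia. In Adar F1, however, D. sechellia reads at this site averaged 22.4% G, against 91.6% in F1. The D. melanogaster read share of that part of the locus was 7.38% in Adar F1 and 54.1% in F1. What lowered the level was not tested.

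The 11-site locus on 3R, 1061931 to 1062100, had the widest gap of a locus mean with the D. melanogaster allele higher. Its gap was -10.7, -7.56 and -10.8 points in the F1 libraries (-9.69 points, adjusted p = 0.000863 by limma). Between the separate parents it was -3.71 points and between alleles in the mixed parents -4.47 points, with the change from parents to F1 not tested at the locus level. At 8 of its 11 sites the D. melanogaster allele was higher and at 2 the D. sechellia allele was. Lower on the D. sechellia allele was 1062097, at 0.830%, 0.465% and 1.37% on the D. sechellia allele against 69.3%, 62.8% and 70.1% on the D. melanogaster allele. So was 1062100, at 0.837%, 1.38% and 0.690% against 46.3%, 33.7% and 38.6%. Higher on the D. sechellia allele were 1062051, at 47.1%, 54.5% and 39.3% against 25.2%, 27.5% and 22.0%, and 1062054, at 95.1% ± 1.84 against 90.2% ± 2.52 (SD, n = 3).

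Set against their own loci, 38 of 194 members departed between F1 alleles, 17 upward and 21 downward (background 22%). Of 20 loci tested by their mean, 3 were called (background 28.2%), with the D. sechellia allele higher in 2 and lower in 1. In addition to the 3R locus, 3L 4590648 had gaps of 6.24, 5.0 and 5.36 points (+5.53, adjusted p = 0.029), and 6 of its 9 sites were called, all with the D. sechellia allele higher. The gap of +16.9 points at 3R 14733293 (adjusted p = 0.000843) was measured over the 5 sites with 50 reads on each allele. It was -1.14 points without sites at 95% G in a parent, and -0.613 points with a minimum of 20 reads, neither of them called. None of the 3 loci was called without F1 replicate 1, when limma called 0 of 20 loci among the members (4 at an unadjusted p under 0.05) and 10 of 179 loci in all. The call at 3L 4590648 was also lost without F1 replicate 2 (+5.80 points) and without F1 replicate 3 (+5.62 points).

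**Figure D3:**
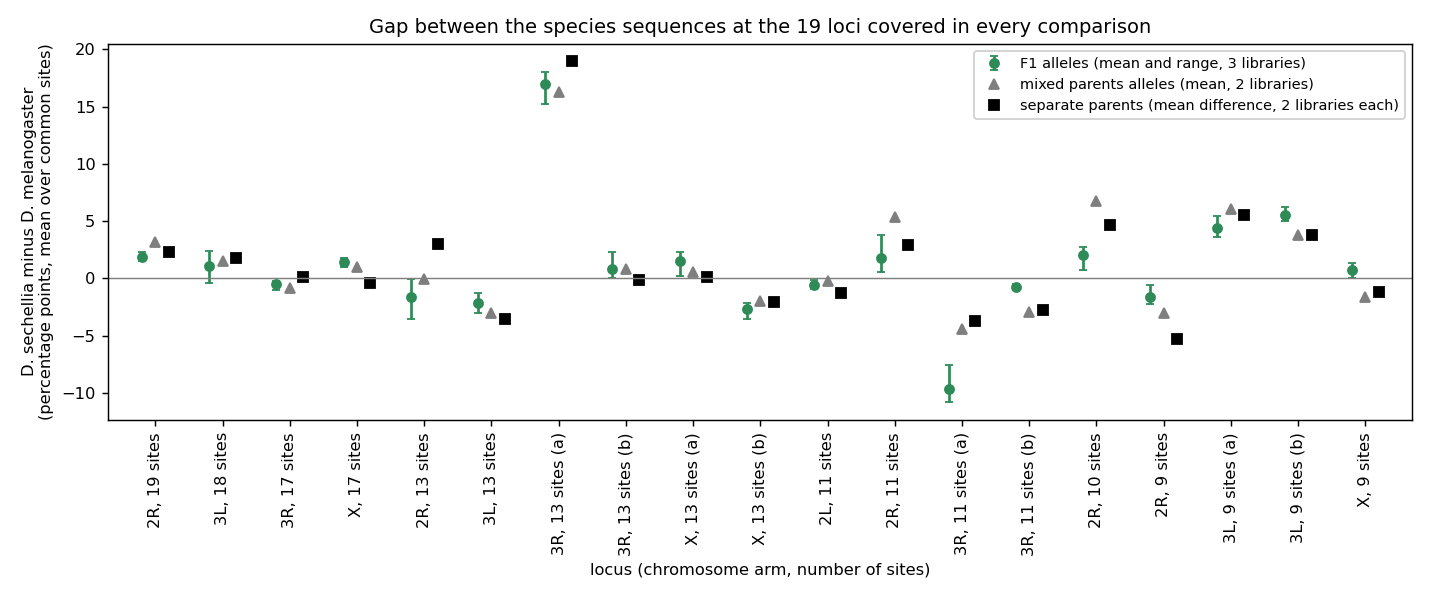
Gap between D. sechellia and D. melanogaster sequences (y axis, percentage points, mean over the sites covered in every comparison) at 19 loci (x axis), in F1 alleles, mixed-parents alleles and separate parents. The F1 gap has the sign of the parental gap at 14 of 19 loci and lies below it at the 11-site 3R locus that starts at 1061931, at -9.69 points against -3.71 points.

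In Adar F1 hybrids 85 of 221 tested members differed from F1, of which 20 rose and 65 fell (619 sites tested in all; background 33.9%, with 7.59% up and 26.3% down). The median change was -0.78 points over tested members and -1.16 points over all tested sites. The mean over 248 members was 19.02%, 17.4% and 17.6% in Adar F1 against 19.7%, 19.2% and 19.7% in F1. All Adar F1 libraries were lower, with an exact two-sided permutation p of 0.1, the smallest that 3 against 3 allow. Among the 135 covered members at 5% or more in F1, the Adar F1 level had a median of 87.6% of the F1 level. It was under 50% of it at 25 members and over 150% of it at 8. Over all 401 such sites the median was 85.9%, with 63 under 50% and 23 over 150%.

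Changes of 1 sign prevailed within loci. Of 13 loci with at least 2 called sites, 8 held only falls, 2 held only rises and 3 held both. Falls also outnumbered rises over all tested sites (26.3% against 7.59% called), and the other loci were not counted this way. Of the 65 members that fell, 28 were covered on both alleles, and at all 28 both allele levels were lower in Adar F1, with medians of -7.33 points on the D. sechellia allele and -6.27 points on the D. melanogaster allele. These are the same reads split by allele, not a second measurement.

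The largest fall of a locus mean in percentage points was that of the 18-site locus on 3L, 9826390 to 9826587. It averaged 12.5%, 7.55% and 7.41% in Adar F1 against 19.5%, 18.9% and 19.1% in F1 over 16 covered sites (-10.0 points, adjusted p = 0.000354 by limma). Of 14 tested sites 13 fell, and all 16 covered sites were lower. The adjacent sites 9826400 and 9826401 fell most, the first at 23.7%, 11.9% and 10.9% in Adar F1 against 54.6%, 47.8% and 47.8% in F1. The second was at 44.5%, 28.7% and 28.4% against 70.2%, 67.5% and 66.8%. Position 9826469 stood at 47.6% ± 13.9 against 79.9% ± 1.72 (SD, n = 3 each). At 8 sites with 5% or more in F1, the Adar F1 level ranged from 17.6% to 75.9% of the F1 level. Adar F1 replicate 1 was the highest of its group at this locus. The D. melanogaster read share was 37.5% in Adar F1 and 40.5% in F1, and the fall was -10.3 points on D. sechellia reads and -9.56 points on D. melanogaster reads.

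**Figure D4:**
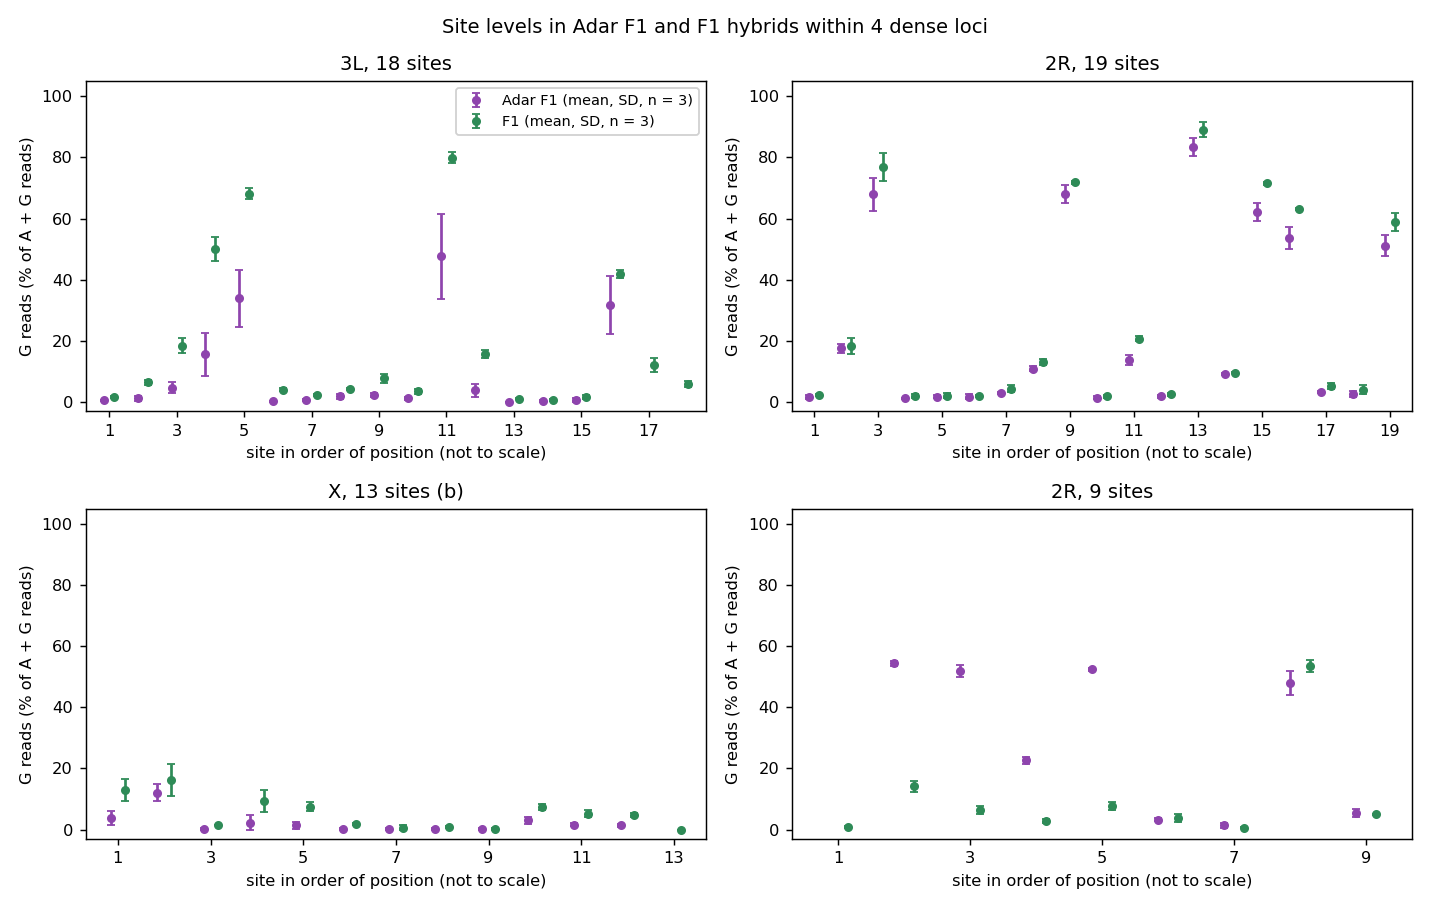
Share of G reads (y axis, percent, mean and SD of 3 libraries) at each site in order of position (x axis) in Adar F1 and F1 within 4 loci. All covered sites of the 18-site 3L locus are lower in Adar F1, the 19-site 2R locus is lower by 3.32 points on average, and in the 9-site 2R locus 4 sites in the first part are higher, while none in the last part is called.

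Further loci had lower means. In the 13-site X locus at 13607572, all 12 covered sites were lower and 6 of 7 tested sites fell, with means of 3.00%, 1.496% and 2.22% in Adar F1 against 6.19%, 4.44% and 6.37% in F1 (adjusted p = 0.00278). In the 17-site X locus at 1267357, the mean was 4.66%, 4.07% and 4.56% against 7.29%, 7.15% and 6.89% over 11 covered sites (adjusted p = 0.00334). Its falls lay in 1 part of the locus: all 7 covered sites from 1267604 on were lower, and the 4 sites up to 1267429 averaged 7.73% in Adar F1 and 7.93% in F1. In the 24-site 2R locus 15 sites fell and 2 rose, and the mean was 24.5%, 23.8% and 23.7% in Adar F1 against 31.3%, 30.7% and 30.3% in F1 (-6.76 points, adjusted p = 0.000138). Pooling all its reads into 1 share changed this to -0.926 points and ended the call. The 2 sites of the locus that rose were 13262546 and 13262611, by 3.44 and 3.26 points on all reads. On D. melanogaster reads they rose by 0.369 and 0.331 points. In the part of the locus that holds them, the D. melanogaster read share was 99.7% in Adar F1 and 96.0% in F1. The adjacent 13262562 and 13262563 fell together there, at 27.0%, 24.5% and 25.9% in Adar F1 against 46.3%, 45.9% and 43.2% in F1, and at 15.7%, 16.1% and 19.05% against 36.4%, 38.0% and 35.2%. The 11-site 3R locus at 1061931 averaged 15.6% ± 0.896 in Adar F1 and 20.2% ± 0.451 in F1 (SD, n = 3 each, adjusted p = 0.00607), and the call was lost on D. melanogaster reads alone (-2.05 points). On D. sechellia reads the fall over the same 10 sites was -5.19 points.

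The 19-site 2R locus showed a shallow fall. At its 11 sites with 5% or more in F1, the Adar F1 level was 65.5% to 95.5% of the F1 level. All 19 sites were lower, 6 of them were called, and the mean was 25.4%, 23.0% and 23.6% in Adar F1 against 26.6%, 27.8% and 27.6% in F1 (-3.32 points, adjusted p = 0.0271). The fall was -3.50 points on D. sechellia reads and -3.12 points on D. melanogaster reads. At 2R 20797921, by contrast, 3 sites fell and 3 rose. The falls were at 20798337, at 18.2%, 22.5% and 15.9% in Adar F1 against 46.8%, 33.1% and 44.4% in F1, at 20798346, at 34.0%, 30.2% and 17.4% against 56.0%, 46.5% and 48.1%, and at 20798632, at 53.9% ± 1.12 against 64.1% ± 1.14 (SD, n = 3 each). In the remaining loci of 14 or more sites few changes were called: 2 falls of 11 tested at 3R 4662509, 3 falls of 12 at X 21500431 and 0 of 2 tested at 2R 6168385.

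**Figure D5:**
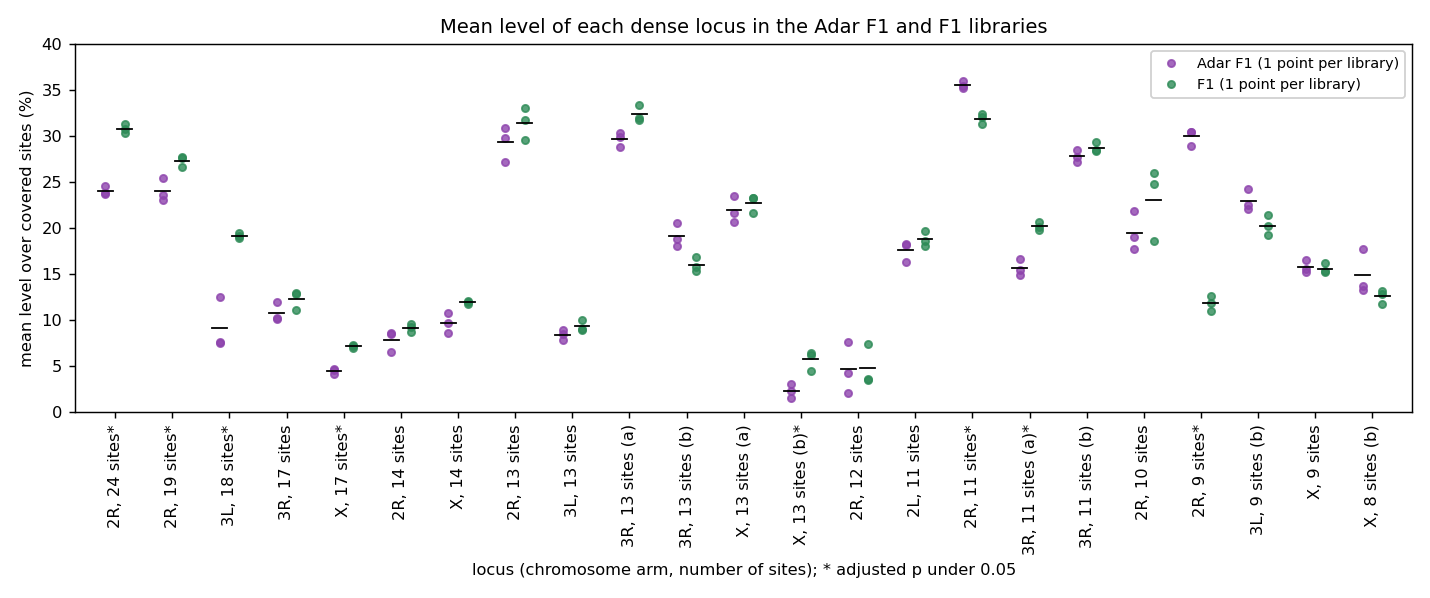
Mean level over covered sites (y axis, percent) of 23 loci (x axis) in the 3 Adar F1 and 3 F1 libraries, 1 point per library, black lines for group means, and asterisks for loci with an adjusted p under 0.05. The 18-site 3L locus is lower in Adar F1 (9.15% against 19.2%) and the 9-site 2R locus is higher (29.9% against 11.8%).

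Of 23 loci tested by their mean, 8 differed, 2 higher and 6 lower in Adar F1 (background 30.3%). The widest rise was that of the 9-site locus on 2R, 11759236 to 11759872, at 30.4%, 28.9% and 30.5% in Adar F1 against 11.8%, 10.9% and 12.6% in F1 (+18.2 points, adjusted p = 6.33e-07). The rise lay at 4 sites in the first part of the locus. Position 11759381 was at 51.1%, 50.3% and 54.2% in Adar F1 against 6.47%, 5.12% and 7.53% in F1. Position 11759421 was at 53.0%, 52.0% and 52.3% against 7.43%, 6.79% and 9.09%. Position 11759340 was at 54.5% ± 0.801 against 14.1% ± 1.78, and 11759418 at 22.7% ± 1.10 against 2.77% ± 0.567 (SD, n = 3 each). Beyond a gap of 428 bases, none of the 4 remaining sites was called, and their mean was 14.5% in Adar F1 and 15.8% in F1.

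Read shares moved with part of that rise. The D. melanogaster share of reads at 11759340 and 11759381 was 92.3% and 94.5% in Adar F1 against 46.9% and 50.1% in F1, while at 11759418 and 11759421 it was 99.8% in both. At 11759340 the D. melanogaster allele was at 56.1% in Adar F1 and 12.99% in F1, and the D. sechellia allele at 35.2% and 15.3%. On D. sechellia reads alone the locus mean was 3.70 points higher in Adar F1 over 5 sites and was not called. Of the 4 sites that rose, only 11759340 had 50 D. sechellia reads in every Adar F1 and F1 library. This mean therefore rests mostly on the part without a rise, and it cannot show whether the other risers rose on that allele. Without members whose read share moved by more than 30 points the locus was still called, at +9.91 points, as it was with pooled reads, at +28.5 points.

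Loci were divided into parts at their widest gap between sites, a rule chosen after values were seen. A split of this kind was also seen in the locus on 3R at 23500441, whose mean was not called (+3.18 points, adjusted p = 0.0645 by limma). Its first 4 sites all rose, among them 23500458, at 87.9%, 82.8% and 85.6% in Adar F1 against 64.1%, 60% and 64.3% in F1, and 23500441, at 27.7%, 24.4% and 24.6% against 11.05%, 10.4% and 14.0%. At these 4 sites no Adar F1 read was of the D. melanogaster sequence, against 61.1% of F1 reads. On the D. sechellia allele alone 23500458 was at 85.4% in Adar F1 and 60.2% in F1. Of the other 9 sites, 122 bases further on, 23500600 also rose and none fell. They averaged 14.4% in Adar F1 and 14.5% in F1, with D. melanogaster read shares of 49.6% and 46.4%. Of the 20 members that rose, 10 had read shares that moved by more than 30 points, as had 5 of the 65 that fell. Without all such sites 10 members rose and 60 fell of 194 tested.

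At 3L 4590708 the rise lay on 1 allele. The site was at 48.5%, 45.4% and 47.4% in Adar F1 against 29.7%, 28.0% and 31.6% in F1, and the D. melanogaster allele was at 57.1% against 26.9%, while the D. sechellia allele was at 33.2% against 33.0%. The adjacent 4590709 was not called, at 74.7% ± 3.27 against 72.1% ± 1.28 (SD, n = 3 each). On 2R, 8336191 was at 51.0%, 55.6% and 58.3% in Adar F1 against 36.1%, 37.6% and 38.3% in F1, with the D. sechellia allele at 55.0% against 37.1% and the D. melanogaster allele at 55.2% against 37.3%. Its locus at 8336159 averaged 35.5% ± 0.385 against 31.9% ± 0.576 (+3.63 points, adjusted p = 0.0495). Leaving out any 1 of the 6 libraries ended that call, at +3.32 to +3.88 points, and pooling its reads gave -0.660 points. The D. melanogaster share of its reads was 11.4% in Adar F1 and 43.6% in F1. Over the 2 sites whose read share moved by no more than 30 points, 8336159 and 8336191, the change was +15.6 points (adjusted p = 0.000944 by limma). It was +3.33 points on D. sechellia reads (not called) and +6.82 points on D. melanogaster reads (6 sites, called).

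Set against the mean change of the other sites of its locus, a member departed in Adar F1 at 72 of 248 sites, 37 upward and 35 downward (limma, background 27%). Taking 1 site per locus, the largest departures upward were 31.2 points at 2R 11759381, 21.0 points at 3R 23500458 and 16.5 points at 3L 4590708. Likewise, the largest downward were -27.2 points at 2R 11759871, -26.2 points at 3L 9826400 and -22.6 points at 2R 20798346. On a logit scale the departure of 3L 9826400 was no longer called (adjusted p = 0.134 by limma). The first of these downward sites was itself not called, at 48.0% ± 3.94 in Adar F1 and 53.7% ± 1.96 in F1, and it lies in the locus whose other part rose. In the species comparison the largest in either direction were 107.5 points at 3R 14733513 and -106.8 points at 3R 14733486, both at 95% G in a parent, and between F1 alleles they were 88.5 points at 3R 14733513 and -89.6 points at X 3847312.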

How the data were processed

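Editing was measured in 12 libraries of female heads by multiplex PCR and sequencing. The authors deposited, per the file headers, whole-number counts of A and G reads per site for each species' sequence and an editing percent. The deposited percent lists 0 where there are no reads and was not used. Reads were aligned with BWA to dm3, per the submitters' processing notes; for its version, the read-assignment rule and the site list nothing is stated in the labels. One D. sechellia library lacks 1 site, taken as no reads. PCR reads without molecular identifiers are not independent molecules, so limits from counts cover counting error only.

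Levels are 100 × G / (A + G), from own-species reads in the parents and from both alleles or each allele elsewhere. Sites needed 50 reads in every library or allele compared and a mean level of 1%. Sites were fitted one at a time by quasi-binomial logistic regression (R 4.3.3, dispersion squeezed with limma 3.58.1 and at least 1, deviance F test). Comparisons of species and of Adar F1 with F1 took the dispersion from all 12 libraries. Comparisons of alleles used only the libraries of their own group, with the library as a block. Locus means and site-against-locus differences (3 or more covered sites) were tested with limma on arcsine-square-root levels. There, a library outside the comparison with any site short of 50 reads was dropped from that fit. Unless another test is named, adjusted p-values are Benjamini-Hochberg values over all sites or loci of these fits, threshold 0.05. Scripts were tested on simulated data.

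Named were the 6 largest rises and 6 largest falls per site comparison among called members with separate libraries, at most 2 per locus, the loci with the most sites, the 3 most changed loci each way, and the 3 largest departures from a locus each way, at most 1 per locus; other sites were chosen after their values were seen. Members and lists were chosen with earlier results of these data known. Samples were grouped by title. Replicate numbers did not pair the samples: deviations of same-numbered libraries correlated at -0.0411 between the species and at 0.123, 0.109 and 0.0204 between Adar F1 and F1. No replicate pair differed by less than sampling noise in coverage (chi-square per degree of freedom 1.96 to 10.2). Alternatives are given in the closing section.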

Additional observations from a re-analysis of the deposited data

Results flagged for a closer look

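Reads of the other species' sequence appeared in the single-species libraries, which the comparisons did not use. At the members, 3.65% of reads in D. sechellia replicate 1 (exact 95% interval 3.54 to 3.76) and 0.684% in replicate 2 (0.633 to 0.739) were assigned to the D. melanogaster sequence, above the share that a count of 0 would allow. They were unevenly placed, with 15.9% of reads at X 1267357, 11.5% at X 21500431 and 9.50% at 2R 13262372, and 0% at 4 loci. In the D. melanogaster libraries 0.275% (0.248 to 0.305) and 0.317% (0.286 to 0.350) of member reads were assigned to D. sechellia. At X 21904474 the D. sechellia libraries held no D. sechellia read.

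At 3L 4590708 the gap between D. sechellia and D. melanogaster alleles was -23.8 points in Adar F1 and +6.14 points in F1, with every library of each group on its own side of 0. This difference between the hybrids was not tested.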

How the results depend on the processing

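Of the alternative fits of the counts and member means, most stayed within 1.5 times the value given or kept its sign. Species: alleles within the mixed parents called 60 member sites (148 of 518 in all) and, by limma, 0 of 19 loci (2 at an unadjusted p under 0.05, 15 of 179 in all). F1 alleles: with no level minimum 20 sites were called, on a logit scale 22 sites departed from their locus, and the median over sites turned the mean difference to -0.794 points. Adar F1: D. sechellia reads alone called 30 sites and 3 loci, and a logit scale called 35 departures from the locus. Leaving out each library gave 95 to 103 species sites, 6 to 7 species loci and 81 to 92 species departures. It gave 42 to 48 F1 allele sites (23.7% to 24.9% called over all tested sites), 0 to 2 loci and 24 to 34 departures (24 without F1 replicate 2). It gave 69 to 96 Adar F1 sites (25.7% to 39.6% called over all tested sites), 6 to 7 loci and 50 to 70 departures. Mean differences then ranged from -1.69 to -0.642 (species), 0.472 to 0.780 (F1 alleles) and -2.04 to -1.21 points (Adar F1). Of 851 refits of named sites and loci, 818 kept direction and call, 30 lost the call and 3 reversed: 3R 14733293 between F1 alleles, at -0.613 with 20 reads and -1.14 without sites at 95% G, and 2R 8336159 in Adar F1, at -0.660 with pooled reads. Why these changed was not tested. The 818 include refits of named single sites with sites joined into loci at other distances. That distance does not enter the test of a single site, so those refits repeated the main values. They could not have come out otherwise and are no check of the site calls. With the replicate block, 118 species and 83 Adar F1 member sites, 8 and 6 loci, and 103 and 70 departures were called, and without the library block 58 F1 allele sites. Site calls in these fits came to 41.1% (species), 33.1% (Adar F1) and 29.4% (F1 alleles) of all tested sites. As chosen after seeing the data, leaving out sites with moved read shares called 70 Adar F1 sites, 9 loci and 48 departures. The remaining counts of member calls in this section stand without a share over all sites or loci. Depth limits 32 members short of 50 reads in a parent library and all levels under about 1%.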
